A study of Mus musculus with 9 samples.

Results

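Peaks of the E proteins E2A and HEB were described around 8 mouse genes, Dusp2, Dusp4, Dusp5, Dusp6, Spry1, Spry2, Cd5 and Cd69, which encode feedback inhibitors of ERK signalling and surface markers of T cell receptor (TCR) signal strength. The genes were taken by name from a list of 8 among 21887 protein-coding genes, and every peak in a gene span or within 50 kb of it was counted, in positions of build mm10. These windows held 63 of the 79216 peaks of the 6 deposited lists. Merged where they touched, the peaks formed 41 of 58444 regions.

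Chromatin immunoprecipitation and sequencing had been done on cultured thymocyte precursors of BALB/c background, all grown from Rag2-deficient fetal liver on OP9-DL1, a stromal line that presents a Notch ligand. The first group was DN3 cells, an early stage that cannot rearrange its own TCR genes without Rag2. Both later groups were DN3 cells given the KN6 gamma-delta TCR by a viral producer line after 7 days of culture, sorted by the YFP marker and cultured for 3 days more. They were then sorted as CD24+ CD73- cells, which per the labels kept alpha-beta potential, and CD24+ CD73+ cells, which had lost it. Each group had 1 E2A, 1 HEB and 1 input library, and the authors pooled the duplicates ahead of peak calling, which leaves the values here without a replicate error and the differences untested. No cells that went through transduction and the added culture without KN6 are among the samples, so the receptor, the added culture and the sort cannot be told apart. Both lists of a stage were called against the same input library. Whether the 2 CD73+ lists carry the right antibody names could not be settled from the files: of all DN3 E2A peaks, 9.27% overlapped a peak of the CD73+ list named E2A and 27.9% one of the list named HEB. Of all DN3 HEB peaks, 14.2% overlapped the list named E2A and 27.2% the list named HEB, so the CD73+ HEB list met more DN3 peaks of both factors. Peaks do not measure RNA, so the labelled cell types could not be checked against marker expression.

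E2A and HEB, both of the basic helix-loop-helix family, pair up to contact E-box sequences in DNA, and Id proteins block that contact. In thymocytes a TCR signal activates Ras, RAF, MEK and ERK in turn, and ERK induces Egr factors and through them Id3, which lowers E protein activity. ERK also switches on its own inhibitors. Dusp phosphatases remove the activating phosphates from ERK and related kinases, and Sprouty proteins act upstream at the level of Ras and RAF. CD5 and CD69 rise on the surface of thymocytes that receive a TCR signal, and CD5 levels are widely used as a record of its strength.

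All 8 genes had at least 1 peak of each factor in DN3 cells. In the DN3 E2A list the count was 8 of 8, against 49.6% of all protein-coding genes, and in the DN3 HEB list it was 8 of 8, against 48.1%. In both DN3 lists together, 36.1% of all genes had a peak. Fewer of the 8 genes had a peak after KN6 transduction. For E2A the counts were 3 of 8 in CD73- cells, against 41.3% of all genes, and 4 of 8 in CD73+ cells, against 53.0%. These E2A counts rested on the settings. Where only the nearest coding gene was counted they were 1 of 8 in CD73- cells (21.5% of all genes) and 2 of 8 in CD73+ cells (29.3%). The CD73+ E2A list is the longest, with 23205 peaks, and reduced to the 9407 highest, the length of the shortest list, it had a peak at 1 of 8 genes (32.9% of all genes). For HEB they were 4 of 8 in CD73- cells, against 37.9% of all genes, and 5 of 8 in CD73+ cells, against 41.8%. The remaining counts were as before under both settings. With the nearest gene only, the shares of all genes with a peak were 25.9% for DN3 E2A, 25.0% for DN3 HEB, 19.1% for CD73- HEB and 21.3% for CD73+ HEB. At equal list length the shares were 42.1% for DN3 E2A, 42.7% for DN3 HEB, 34.2% for CD73- E2A, 37.9% for CD73- HEB and 39.8% for CD73+ HEB. Among coding genes whose span was no longer than that of Cd5 (20920 bp), the longest of the 8, the shares with a peak were 43.6% for DN3 E2A, 42.7% for DN3 HEB, 37.2% for CD73- E2A, 33.3% for CD73- HEB, 48.2% for CD73+ E2A and 37.1% for CD73+ HEB. All 3 HEB lists had a peak at 3 of 8 genes, Dusp2, Dusp6 and Cd69 (18.7% of all genes), and all 3 E2A lists at 1, Spry2 (16.8%). No gene of the 8 had a peak in all 6 lists, against 9.53% of all genes.

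**Figure D1:**
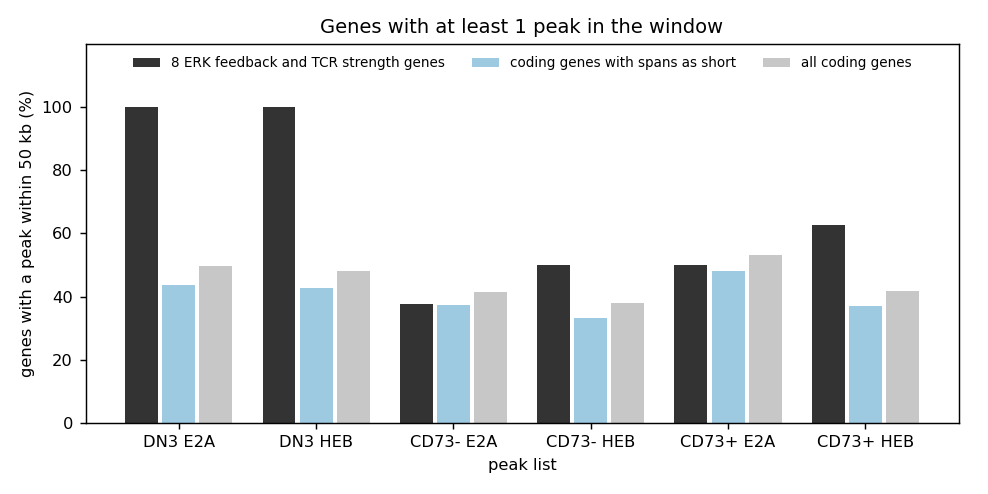
Share of genes (%, y axis) with at least 1 peak within 50 kb in each of the 6 peak lists (x axis), for the 8 ERK feedback and TCR strength genes, for coding genes with spans no longer than the longest of them and for all coding genes. The 8 genes reach 8 of 8 in both DN3 lists and 3 and 4 of 8 in the E2A lists of CD73- and CD73+ cells.

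The score of a peak is taken to be the authors' −10 log10 of its p-value. It ranks peaks within a list only, and 100 or more is called strong here. In DN3 cells the best peaks at these genes scored about as high as those of genes in general. The highest score per gene had a median of 119 in the DN3 E2A list, against 116 over all genes with a peak, and of 88.3 in the DN3 HEB list, against 92.5. In the CD73- lists the medians were 56.6 for E2A, against 62.1 over all genes, and 83.7 for HEB, against 65.8. In the CD73+ lists they were 58.3 for E2A, against 68.5, and 94.7 for HEB, against 75.3. Strong peaks stood at 5 of 8 genes in the DN3 E2A list, where 27.5% of all genes had one, and at 3 of 8 in the DN3 HEB list, where 22.2% did. In CD73- cells they stood at 0 of 8 for E2A (7.08% of all genes) and 1 of 8 for HEB (9.08%), and in CD73+ cells at 0 of 8 for E2A (9.11%) and 2 of 8 for HEB (15.8%). Within the narrower window of 10 kb, E2A peaks were called at 4 genes in DN3 cells (26.2% of all genes), 0 for CD73- (17.6%) and 0 for CD73+ cells (23.7%). HEB peaks within 10 kb were called at 4 genes in DN3 cells (24.3%), 2 for CD73- (17.1%) and 3 for CD73+ cells (20.2%). A gene without a called peak may still be bound, since the read depth behind the lists is unknown.

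**Figure D2:**
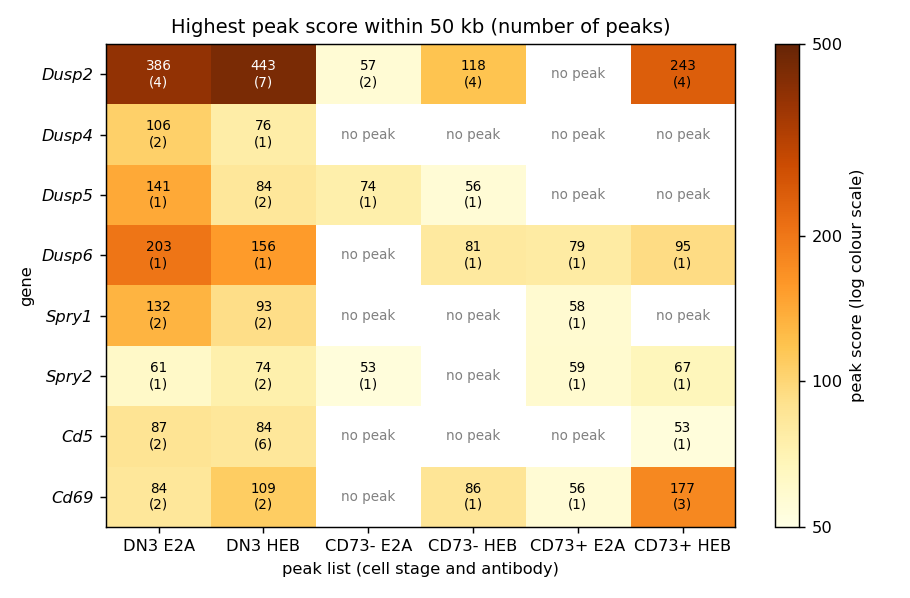
Highest peak score within 50 kb of each gene (rows) in each peak list (columns), coloured on a log scale, with the number of peaks in brackets. Dusp2 holds the highest score in both DN3 lists, 386 and 443, and Dusp4 has no peak outside DN3 cells.

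Dusp2 encodes a nuclear phosphatase of ERK and other MAP kinases that is strongly induced in activated lymphocytes, and it held 33.3% of the 63 peaks. Its span on chr2:127336159-127338377 is 2219 bp long, and 4 E2A and 7 HEB peaks of DN3 cells lay within 50 kb. As many DN3 HEB peaks were found around 0.804% of all protein-coding genes and as many DN3 E2A peaks around 7.42%. In CD73- cells 2 E2A and 4 HEB peaks were called there, and in CD73+ cells 0 E2A and 4 HEB peaks. As many were found around 14.3% of all genes for CD73- E2A, 1.95% for CD73- HEB and 3.58% for CD73+ HEB. These shares were taken for Dusp2 alone, which had the most peaks of the genes described, so they overstate how unusual it is. Adra2b, Astl and Stard7 lie in the same window, and the outermost peaks are nearer to Stard7 or Astl than to Dusp2. A DN3 HEB peak of 89.1, only 492 bp beyond Dusp2, also overlaps Astl. The counts above include these peaks.

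The strongest site of all 8 genes lay upstream of Dusp2 at chr2:127328071-127329308, 6851 bp from the gene. Scores there were 386 for E2A and 443 for HEB in DN3 cells, 118 for HEB in CD73- cells and 136 for HEB in CD73+ cells, with a weaker CD73+ HEB peak of 54.2 beside it. No E2A peak was called at this site in CD73- or CD73+ cells. The DN3 E2A peak ranked 1097 of 12357 in its list, and the DN3 HEB peak ranked 468 of 11619. The main CD73+ and CD73- HEB peaks had midpoints 40.5 bp and 25.5 bp from that of the DN3 E2A peak and lay inside it.

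A second site covered the 5′ end of Dusp2 at chr2:127334388-127336374. The DN3 HEB peak of 125 was 1987 bp wide and reached over the start site. The DN3 E2A peak of 162, the CD73- HEB peak of 71.0 and the CD73+ HEB peak of 163 ended 504 bp, 921 bp and 794 bp short of the gene. At this site, as at the one before, all 3 stages had a HEB peak and E2A was called in DN3 cells only. Only the wide DN3 HEB peak covered the promoter, so the 250 bases before the start site are shown for the sequence under it, from chr2:127335909-127336158 on the plus strand (RefSeq, GRCm38.p6), with E-boxes of the form CANNTG in capitals.
Dusp2: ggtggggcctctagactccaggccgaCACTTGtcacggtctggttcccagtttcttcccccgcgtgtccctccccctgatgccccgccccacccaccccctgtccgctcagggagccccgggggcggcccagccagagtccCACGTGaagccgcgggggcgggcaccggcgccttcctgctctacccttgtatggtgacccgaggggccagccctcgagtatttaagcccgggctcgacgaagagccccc
The boxes are CACTTG, which starts 224 bases before the start site, and CACGTG at 109 bases. CANNTG reads the same on both strands and occurs in 66.2% of 32851 promoters of this length, so its presence says little. Neither CAGCTG (13.0% of promoters) nor CAGGTG with its reverse CACCTG (17.2%) occurs in these 250 bases.

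The other recurrent Dusp2 sites differed between CD73- and CD73+ cells. Most HEB peaks of the lists did so too, as 24.9% of all CD73- HEB peaks overlapped a CD73+ HEB peak. Inside the gene, at chr2:127337156-127338358, scores were 240 for E2A and 87.9 for HEB in DN3 cells and 64.5 for HEB in CD73- cells, and no CD73+ peak was called. Farther upstream, at chr2:127314188-127314912, 21247 bp from the gene and 15253 bp from Stard7, a lipid transfer protein gene, scores were 226 for E2A and 118 for HEB in DN3 cells and 243 for HEB in CD73+ cells, with no CD73- peak. That 243 was the highest score of CD73+ cells at any of the 8 genes and ranked 877 of 10194 in its list. The remaining 6 regions around Dusp2 had a peak in 1 list each. Those in DN3 HEB alone scored 54.9 to 89.1, the CD73- HEB peak scored 58.1, and the CD73- E2A peaks scored 50.6 and 56.6, close to the minimum of 50.

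**Figure D3:**
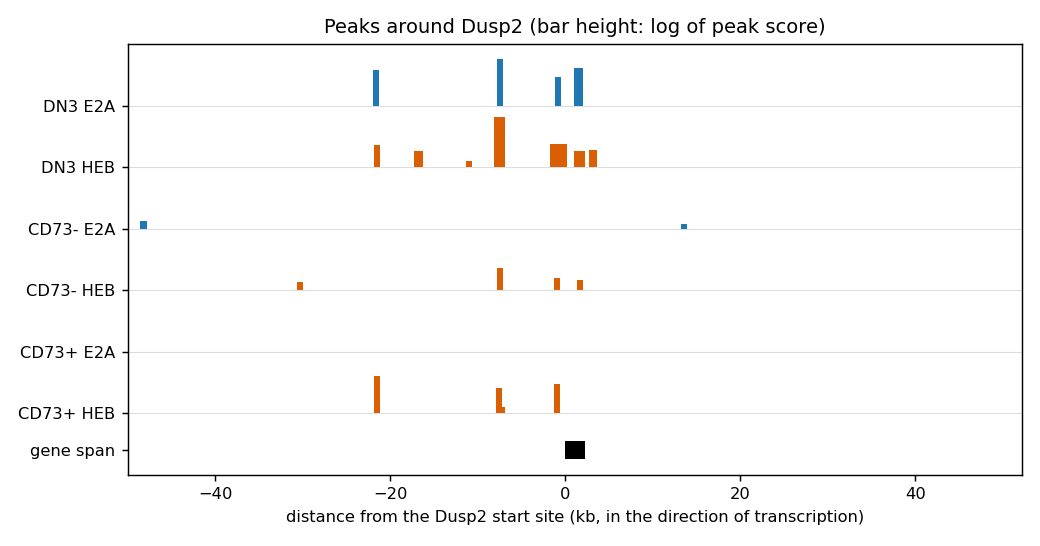
Peaks of the 6 lists (rows) by distance from the Dusp2 start site (x axis, kb), with bar height following the log of the peak score, narrow peaks drawn wider than they are, and the gene span in black. HEB bars recur upstream of the gene at all 3 stages, whereas the E2A bars at those places are in DN3 cells.

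Dusp4, a nuclear phosphatase of ERK and other MAP kinases, had 3 peaks, all in DN3 cells and none shared between the factors. An E2A peak of 66.1 lay inside the gene, at chr8:34815348-34815727, and another of 106 lay 16249 bp away inside Tnks, the tankyrase gene, at chr8:34836143-34836845. The HEB peak of 76.4 lay on the other side, 25244 bp from the gene. Each of these sites was thus seen in 1 list.

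Dusp5, a nuclear phosphatase selective for ERK, had its only shared site 25449 bp before the gene, at chr19:53502687-53503696, with DN3 scores of 141 for E2A and 84.0 for HEB. No peak of CD73- or CD73+ cells was called at it. A second DN3 HEB peak of 76.2 stood 14518 bp beyond the gene. The CD73- peaks, 55.7 for HEB at 2761 bp and 74.4 for E2A at 45140 bp, stood at places without a DN3 peak, and no CD73+ peak was called within 50 kb.

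Dusp6 encodes the cytoplasmic phosphatase that acts on ERK, and no other protein-coding gene lies in its window. It had 1 recurrent site, 20280 bp upstream at chr10:99241854-99242951. Scores there were 203 for E2A and 156 for HEB in DN3 cells, 80.9 for HEB in CD73- cells and 94.7 for HEB in CD73+ cells. The pattern was that of the main Dusp2 site, with HEB at all 3 stages and E2A in DN3 cells only. The CD73+ and CD73- HEB peaks, 266 bp and 143 bp wide, lay inside the DN3 E2A peak of 1098 bp. The remaining peak was a CD73+ E2A peak of 78.7, 77 bp wide and 39059 bp beyond the gene, where no other list had a peak.

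**Figure D4:**
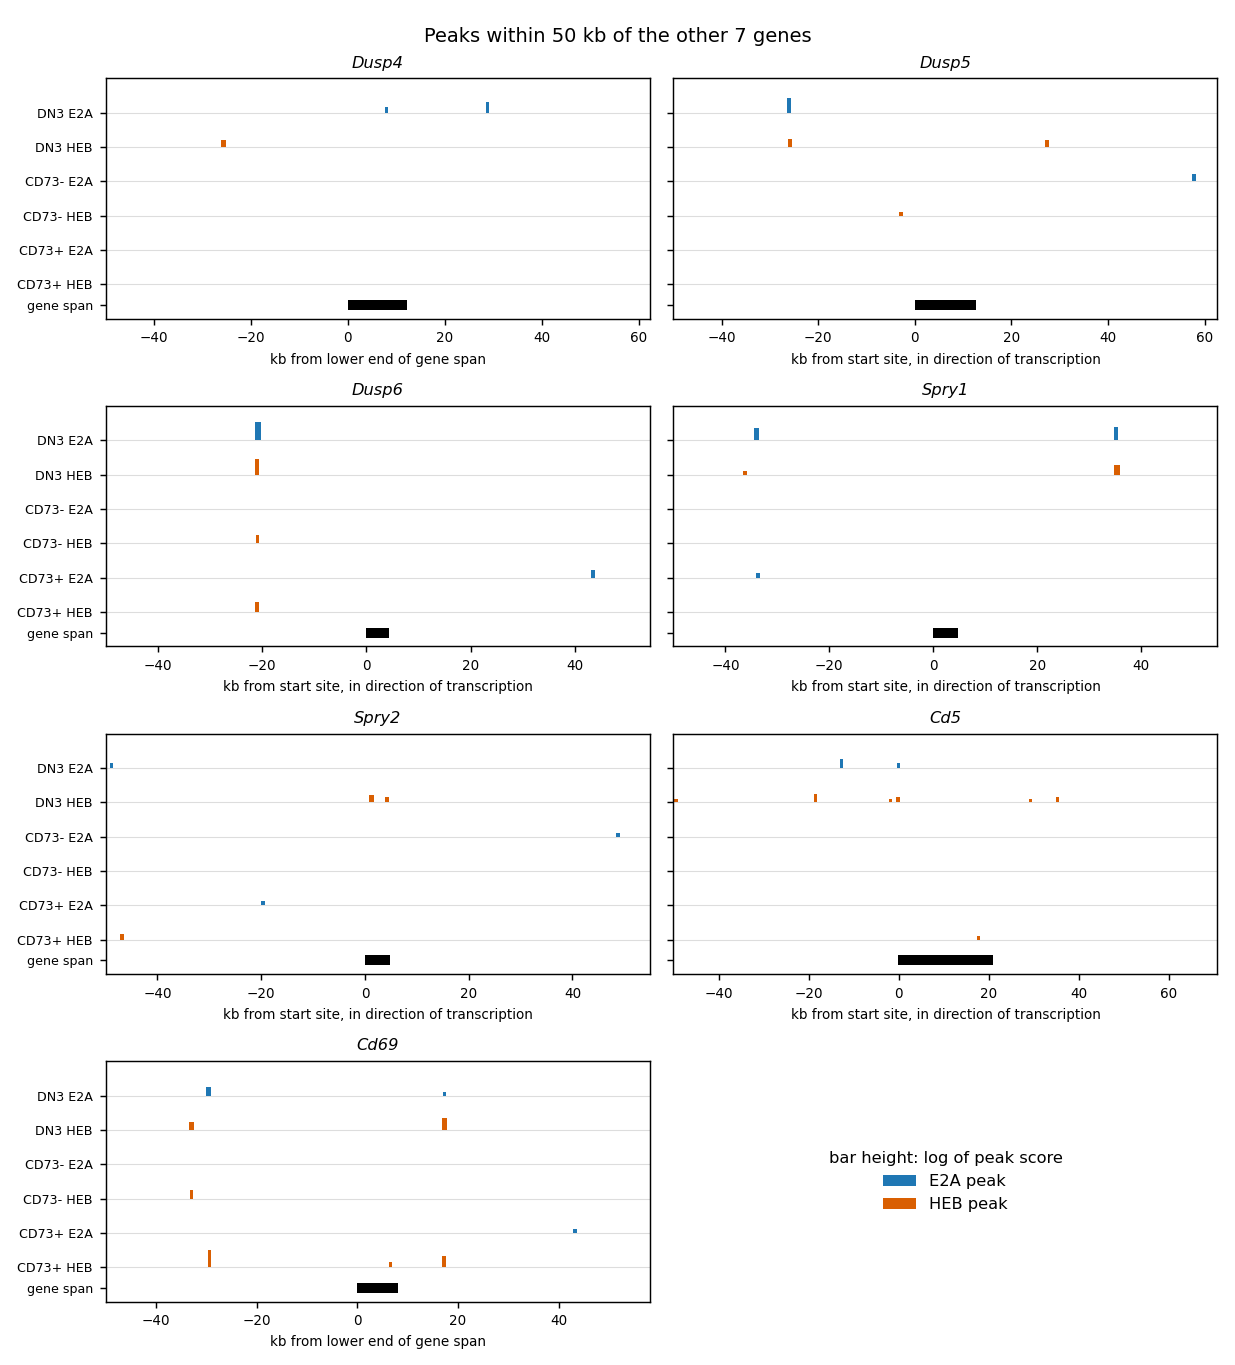
Peaks of the 6 lists (rows in each panel) around the other 7 genes by distance in kb from the start site or, for Dusp4 and Cd69, from the lower end of the span, with bar height following the log of the peak score, narrow peaks drawn wider than they are and the gene span in black. Dusp6 shows 1 site shared by 4 lists, and most peaks at Spry2 and Cd5 stand alone.

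Spry1, a Sprouty inhibitor of Ras-ERK signalling, had only distant peaks. The nearest region, at chr3:37674689-37675771 and 30090 bp beyond the gene, scored 132 for E2A and 92.6 for HEB in DN3 cells and was not called later. A DN3 E2A peak of 121 at chr3:37605442-37606451 lay 33496 bp before the gene and 26346 bp from Spata5, the nearer gene. A CD73+ E2A peak of 58.0 overlapped it, which was the only DN3 E2A peak at any of the 8 genes to recur in an E2A list of the transduced cells. No HEB peak of CD73- or CD73+ cells was called in the Spry1 window.

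Spry2, its relative, had 6 peaks in 6 separate regions, so none recurred. HEB peaks of DN3 cells scored 62.3 and 74.3 inside the gene. The other 4 lay 19627 bp to 48491 bp away and scored 61.3 for DN3 E2A, 53.3 for CD73- E2A, 58.6 for CD73+ E2A and 67.0 for CD73+ HEB. All 6 were below 100.

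Cd5 encodes the scavenger-receptor-like surface protein that dampens TCR signals. It had 2 E2A and 6 HEB peaks in DN3 cells, but all scored below 100, with the highest at 86.6 for E2A and 83.8 for HEB. Both factors had a peak over the start site, at chr19:10738704-10739356, with DN3 scores of 63.0 for E2A and 64.1 for HEB and no peak later. Of the 6 genes matched in the promoter table, Cd5 was the only one with a DN3 E2A peak over the 300 bases around the start site, and Cd5 and Dusp2 were those with a DN3 HEB peak. Over all promoters in the table, 2.23% had a DN3 E2A peak there and 2.43% a DN3 HEB peak. The 250 bases before the start, chr19:10738975-10739224 on the minus strand, are shown because both peaks cover them, with CANNTG boxes in capitals.
Cd5: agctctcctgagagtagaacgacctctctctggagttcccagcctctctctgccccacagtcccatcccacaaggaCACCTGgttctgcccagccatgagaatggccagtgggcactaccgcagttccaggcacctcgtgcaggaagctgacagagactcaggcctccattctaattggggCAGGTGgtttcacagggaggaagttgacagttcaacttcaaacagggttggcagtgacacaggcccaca
The boxes CACCTG, 174 bases before the start site, and CAGGTG, 69 bases before it, are the same motif on opposite strands, a form that E2A is known to bind. Of all 32851 promoters, 17.2% hold it at least once and 2.06% at least 2 times in this length. A match describes the letters only and does not show that a factor sat there.

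The other DN3 peaks around Cd5 stood alone. Those in Vps37c, an adjoining gene of endosomal sorting, scored 62.1 and 52.4 for HEB, and a HEB peak of 53.7 lay 657 bp from Cd6, a related receptor gene. The E2A peak of 86.6 and the HEB peak of 83.8 lay 12286 bp and 17997 bp from Cd5 on the side of its start, and did not overlap each other. After KN6 transduction 1 peak was called in the window, a CD73+ HEB peak of 53.3 inside the gene that no other list shared.

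Cd69 encodes an early activation antigen that holds thymocytes in the tissue by blocking a sphingosine phosphate receptor. Its sites carried HEB peaks at different places in CD73- and CD73+ cells, as most HEB peaks of those lists did (24.9% of all CD73- HEB peaks overlapped a CD73+ one). At chr6:129284203-129285229, 8828 bp from the gene on the higher-coordinate side, scores were 53.9 for E2A and 109 for HEB in DN3 cells and 105 for HEB in CD73+ cells, with no CD73- peak. On the other side, at chr6:129237357-129238215 and 29109 bp away, the scores were 84.0 for DN3 E2A and 177 for CD73+ HEB, and HEB was not called in DN3 cells. A neighbouring region 2377 bp farther out, chr6:129233959-129234979, had HEB scores of 78.6 in DN3 cells and 86.5 in CD73- cells and none in CD73+ cells. A CD73+ HEB peak of 64.5 also lay inside the gene, where no other list had one. The only E2A peak after transduction, a CD73+ peak of 56.5, stood alone 35060 bp from Cd69 and 11524 bp from Clec2m.

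Across the 8 genes, 9 regions had peaks of both factors in DN3 cells, 4 of them at Dusp2 and 1 each at Dusp5, Dusp6, Spry1, Cd5 and Cd69. These 9 regions held 9 of the 15 DN3 E2A peaks, 60.0% (95% Wilson interval 35.7% to 80.2%, counting error only), against 44.1% of all DN3 E2A peaks. They held 9 of the 23 DN3 HEB peaks, 39.1% (22.2% to 59.2%), against 46.0% of all. Both intervals treat peaks as independent, although 4 of the 9 regions lie at Dusp2. The DN3 E2A peaks at these genes had a median score of 121, against 82.1 over the list. Of the 9 strong DN3 E2A peaks, 7 overlapped a HEB peak of any score, 77.8% against 77.4% of all strong ones. All 5 strong DN3 HEB peaks overlapped an E2A peak, where 85.1% of all strong ones did. Midpoints of the 2 factors' DN3 peaks were 20.5 bp to 143 bp apart in these regions, with a median of 81.5 bp. At the later stages no called site was shared between the factors at these genes. Peaks were narrower there over the whole lists, with median widths of 155 bp and 149 bp for CD73- E2A and HEB. In CD73+ cells the widths were 175 bp and 181 bp, against 617 bp and 721 bp in DN3 cells. Wider peaks meet others more easily, and the part of width in the overlaps was not tested. In CD73- cells 0 of 4 E2A peaks overlapped a HEB peak, against 16.5% of all CD73- E2A peaks, and in CD73+ cells 0 of 4 did, against 6.75%. With so few peaks the upper limit of each share is 49.0%.

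Of the 9 regions, 4 had a HEB peak in CD73- cells, 5 had one in CD73+ cells and 6 had one in either, 66.7% (Wilson 35.4% to 87.9%), against 55.0% of all 5293 regions with both factors in DN3 cells. None of the 9 had an E2A peak in CD73- or CD73+ cells, against 27.2% of all such regions. This difference was not tested, and 4 of the 9 regions share the gene Dusp2. The regions with a later HEB peak were those at Dusp2, Dusp6 and Cd69, and those without were at Dusp5, Spry1 and Cd5. DN3 HEB scores were 87.9 to 443 in the 6 regions with a later HEB peak and 64.1 to 92.6 in the 3 without, which overlap. DN3 E2A scores were 53.9 to 386 with and 63.0 to 141 without. By DN3 E2A score, a later HEB peak was called at 1 of 2 regions below 100, 1 of 3 from 100 to 200 and 4 of 4 above that, against 32.1%, 47.1% and 76.2% of such regions over the genome. Of the 9 regions, 4 lay at Dusp2, and without Dusp2 a later HEB peak was called at 2 of 5.

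**Figure D5:**
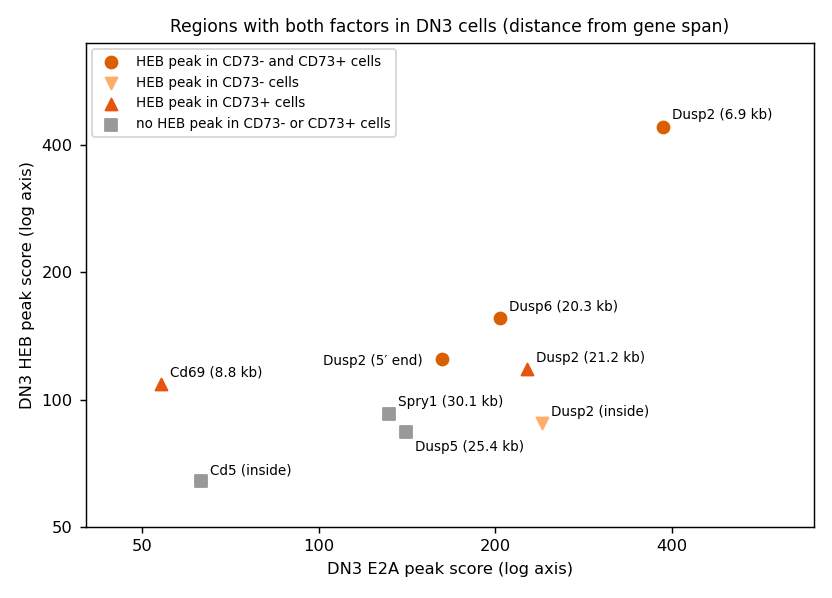
DN3 E2A score (x axis, log) against DN3 HEB score (y axis, log) of the 9 regions with both factors in DN3 cells, labelled with the gene and the distance from its span, with the marker showing in which later cells a HEB peak was called. The 6 regions with a later HEB peak lie at Dusp2, Dusp6 and Cd69, and the grey squares without one lie at Spry1, Dusp5 and Cd5.

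Counted by peaks, CD73- E2A peaks overlapped 0 of 15 DN3 E2A peaks, against 13.0% over the whole list, and CD73+ E2A peaks overlapped 1 of 15, against 9.27%. Among 23 DN3 HEB peaks, 5 met a HEB peak of CD73- cells, 21.7% against 19.4% of all, and 5 met one of CD73+ cells, 21.7% against 27.2%. Seen from the later lists, 5 of 7 CD73- HEB peaks lay on a DN3 peak of either factor, 71.4% (35.9% to 91.8%) against 33.3% of all CD73- HEB peaks, and 7 of 10 CD73+ HEB peaks did, 70.0% (39.7% to 89.2%) against 45.0%. Of the E2A peaks, 0 of 4 in CD73- cells and 1 of 4 in CD73+ cells did, against 20.5% and 9.92% of all. The HEB peaks at these genes scored higher than their lists, with medians of 71.0 against 61.5 in CD73- cells and 99.6 against 63.2 in CD73+ cells. Of those scoring at least 100, 1 of 1 and 5 of 5 lay on a DN3 peak, against 89.7% and 90.1% of all such peaks. The intervals treat peaks as independent, but without Dusp2 only 3 and 6 of the 7 and 10 HEB peaks remained. The E2A peaks of the later stages at these genes scored 50.6 to 74.4 in CD73- cells and 56.5 to 78.7 in CD73+ cells. Scores were low throughout those lists. The median was 54.95 at these genes against 58.32 over all CD73- E2A peaks, and 58.3 against 61.5 for CD73+ E2A. Of all peaks in the 2 lists, 8.79% and 7.02% scored at least 100. All 8 peaks lay more than 10 kb from their gene, where 17.6% and 23.7% of all genes had such a peak within 10 kb. With the names of the CD73+ lists exchanged, 6 of 15 DN3 E2A peaks overlapped a CD73+ peak (27.9% of all DN3 E2A peaks) and 0 of 23 DN3 HEB peaks did (14.2% of all), so the statements on CD73+ cells rest on those names.

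Of the 41 regions, 20 had peaks in DN3 cells only, 48.8% against 21.6% of all regions, and 12 had no DN3 peak, 29.3% against 68.4%. The regions with HEB at all 3 stages numbered 3, 7.32% against 2.74% of all, and they were the pair at Dusp2 and the one at Dusp6. Without Dusp2 the share was 1 of 31 regions, 3.23%. No region had E2A at all 3 stages (1.31% of all) or a peak in all 6 lists (1.04%). In 29 regions, 70.7%, the peak was in 1 list alone, against 82.3% of all. For 28 of the 41 regions the gene itself was the nearest protein-coding gene.

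Other genes of the pathway were counted in the same way. Of 15 other Dusp genes, 10 had an E2A peak within 50 kb at the DN3 stage, 4 in CD73- and 6 in CD73+ cells, and for HEB the counts were 8, 2 and 6. Their highest peaks were at Dusp22, whose product acts on the kinase Lck, with 526 for E2A and 303 for HEB in DN3 cells and 289 for CD73+ HEB. Dusp10, a JNK and p38 phosphatase gene, had 238 for DN3 E2A and 420 for CD73+ HEB, and Dusp14 had 155 for DN3 E2A. Of 5 other Sprouty and Spred genes, 3 had a peak of E2A and 3 of HEB at the DN3 stage. The counts were 0 and 2 in the CD73- lists and 2 and 2 in the CD73+ lists. Among these genes Spred2, an inhibitor of Ras-ERK signalling, had 254 and 210 in DN3 cells, and its relative Spred3 had 76.6 and 194. Spred1 had a CD73+ E2A peak of 113 alone.

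The Ras-ERK cascade, 24 genes, had E2A peaks at 17 in the DN3 list, 10 in the CD73- list and 11 in the CD73+ list, and HEB peaks at 13, 13 and 12. In the same order, the shares of all genes were 49.6%, 41.3% and 53.0% for E2A and 48.1%, 37.9% and 41.8% for HEB. Among the highest peaks of the cascade were those at Ksr1, a scaffold for RAF, MEK and ERK. Scores there were 2310 for E2A and 956 for HEB in DN3 cells and 587 for CD73+ HEB. Each of these 3 scores exceeded the highest at the 8 genes in the same list, 386, 443 and 243. Of 14 TCR signal tuning genes, 12 had a peak of E2A and 11 of HEB at the DN3 stage, 5 and 7 in the CD73- lists and 9 and 8 in the CD73+ lists. The shares of all genes given above for each list apply here too. Cbl, a ubiquitin ligase gene, had 832 and 421, Pag1, an adaptor gene, 829 and 650, and Themis 424 and 588 in DN3 cells. Themis, a regulator of TCR signalling in thymocytes, had peaks in all 6 lists, the lowest 261 in CD73+ E2A.

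Of 12 genes typical of B, myeloid, erythroid, stromal or liver cells, 7 had a peak of E2A and 7 of HEB within 50 kb at the DN3 stage. The shares of all genes were 49.6% and 48.1%. For CD73- cells the E2A list had a peak at 8 and the HEB list at 9 (41.3% and 37.9% of all genes). For CD73+ cells the counts were 5 and 7 (53.0% and 41.8%). High peaks were at Itgam (1184 for E2A and 784 for HEB in DN3 cells) and Col1a1 (895 and 499). A peak in a window can belong to another gene, and other cell types' part in the values at the 8 genes was not tested.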

How the data were processed

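The files used were 6 deposited peak lists, 1 per stage and antibody, against 3 input libraries. The submitters' processing notes name Bowtie, HOMER, MACS 1.4.2 and build mm10, and per the labels duplicates were joined into 1 file. Settings are not given in the sources used here. The deposited score of each peak is taken to be −10 times the log10 of the p-value that MACS gave the authors, from the tool's name, the minimum of 50 and the ties at 3100. It was not changed. Lists were matched to samples by cell and antibody name. Peaks on the 21 main chromosomes were used, 9407 to 23205 per list. Depth per library is unknown. Gene spans (GRCm38.p6, the assembly of mm10), strand and promoter sequence came from RefSeq tables, and 6 of 8 genes matched the promoter table. Overlap means at least 1 bp, without adjustment for the wider peaks of the DN3 lists. Wilson intervals cover counting error only and treat peaks or regions as independent. The members, gene lists and naming rule (all 8 genes, and of each other list the 3 genes with the highest peak) were chosen with earlier results of these data known. A few genes picked by this rule are left out of the text. With 1 list per group no test was made. Counting and overlap steps were checked on simulated data. Alternatives were a score of at least 100, a window of 10 kb, the nearest gene, equal list lengths, overlap over 50% of both peaks, merging up to 200 bp and exchanged CD73+ lists. Genes of short span and the counts without Dusp2 were added after seeing the data. Scripts ran in Python 3.11.15 (pandas 2.3.3, numpy 2.4.6, scipy 1.17.1, matplotlib 3.10.9).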

Additional observations from a re-analysis of the deposited data

How the results depend on the processing

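With peaks scoring at least 100 only, 5 and 3 of 8 genes had a peak for E2A and HEB in DN3 cells (27.5% and 22.2% of all genes). The counts were 0 and 1 in CD73- cells (7.08% and 9.08%) and 0 and 2 in CD73+ cells (9.11% and 15.8%). DN3 E2A peaks on a HEB peak then numbered 4, DN3 E2A peaks on a CD73+ E2A peak 0 and DN3 HEB peaks on a CD73- HEB peak 1. With a window of 10 kb the gene counts were 4 and 4 (26.2% and 24.3% of all genes), 0 and 2 (17.6% and 17.1%), and 0 and 3 (23.7% and 20.2%). Those peak counts were then 5, 0 and 3, with 3 for DN3 HEB peaks on a CD73+ HEB peak. Counting the nearest gene only left 1 gene for CD73- E2A (21.5% of all genes) and 2 for CD73+ E2A (29.3%), and lists of equal length left 1 for CD73+ E2A (32.9%). Overlap over 50% of both peaks gave 0 DN3 E2A peaks on a CD73+ E2A peak, 0 DN3 HEB peaks on a CD73- HEB peak and 1 on a CD73+ HEB peak, which the narrower later peaks limit by construction. Peak counts under the higher score, the narrower window and the 50% overlap have no whole-list share beside them. Their falls cannot be read as particular to the 8 genes. With the CD73+ lists exchanged, 6 DN3 E2A peaks and 0 DN3 HEB peaks overlapped a CD73+ peak. Merging peaks up to 200 bp apart left 0 regions in all 6 lists. The highest score fell with the 10 kb window at Dusp4 (66.1), Dusp5 (55.7), Cd5 (64.1) and Cd69 (109), and Dusp6 and Spry1 had no peak there. No paired analysis was possible because each group has 1 list and no replicate number, and none could be left out in turn. Unknown depth limits every statement that a peak was not called.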
